A study of Drosophila melanogaster with 18 samples.

Results

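The genes described here encode 10 monoamine receptors of Drosophila melanogaster, taken by name from the 17402 genes of a count table, and every one of the 10 had a row in it. They comprise 4 dopamine receptor genes (Dop1R1, Dop1R2, Dop2R and DopEcR), 5 serotonin receptor genes (5-HT1A, 5-HT1B, 5-HT2A, 5-HT2B and 5-HT7) and Oamb, an octopamine receptor gene. RNA was sequenced from 18 libraries in 6 groups of 3. Neurons were sorted live from larvae at the third instar and from P14 pupae, in which the pan-neuronal driver elav expressed Dcr and the membrane marker mCD8::GFP, without (control) or with shep-RNAi. Dcr, a Dicer transgene used to strengthen RNAi, and mCD8::GFP were thus carried by the controls as well, and the populations hold whatever cells expressed elav. BG3 cells, a cultured line from the nervous system, were treated with dsRNA (double-stranded RNA) to shep, or to GFP as their control. The gene shep, named alan shepard, codes for a protein that binds RNA. The labels do not say whether replicates came from separate animals or cultures, so every p-value rests on the variation among libraries, which may be technical.

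Dopamine, serotonin and octopamine are released by small sets of neurons and act on many others through G protein-coupled receptors in the cell membrane. Receptors coupled to Gs raise cyclic AMP, those coupled to Gi lower it, and those coupled to Gq act through phospholipase C and calcium. In flies these receptors are known for their parts in learning, sleep, arousal, feeding and courtship, and several are abundant in the mushroom bodies, a centre of olfactory memory. Octopamine fills many of the roles that noradrenaline has in vertebrates.

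In dm6 coordinates, Dop1R1 lay on chromosome arm 3R from 14165379 to 14214810 (minus strand), Dop1R2 on 3R from 29630304 to 29659984 (minus), Dop2R on X from 20004680 to 20062706 (minus) and DopEcR on 3L from 4367649 to 4380387 (minus). 5-HT1A lay on 2R from 19067155 to 19121958 (plus), and 5-HT1B, on the same arm from 19022325 to 19032642 (minus), was separated from it by 34512 bp. 5-HT2A was on 3R from 4612870 to 4633304 (plus), 5-HT2B on 3R from 8578205 to 8629996 (plus), 5-HT7 on 3R from 30968236 to 31016875 (minus) and Oamb on 3R from 20689018 to 20714577 (minus). All were long genes with long transcripts, from 4026 bp of exon in 5-HT1B to 14565 bp in Dop1R1, against a median of 2198 bp among the genes tested in neurons. No exon of a member overlapped an exon of another annotated gene on either strand.

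Total counts were 7392299 to 12910603 per neuron library and 3141100 to 5081610 per BG3 library. The targeted gene was lower in every knockdown comparison, with a shep log2 fold change of -0.92 in pupal neurons, -1.44 in larval neurons and -1.08 in BG3 cells (edgeR adjusted p = 3.70e-06, 4.93e-09 and 1.26e-06). Of 6 neuronal markers all 6 reached 1 CPM (counts scaled to a common library size) in every neuron group, with elav at 2457 ± 60.3 CPM in larval and 1067 ± 65.7 CPM in pupal controls (SD, n = 3 each) and summed levels of 5621 to 6597 CPM in larval and 16479 to 19793 CPM in pupal libraries. In BG3 cells only 2 of the 6 did. These were elav, at a mean of 105 CPM with GFP and 120 CPM with shep dsRNA, and Snap25, at 2.47 and 1.94 CPM. The synaptic genes nSyb, brp and Syt1 averaged under 1 CPM in BG3 cells. Markers of other cell types were mixed in pupal control neurons. Of the glial list repo stood at 0.94 ± 0.36 CPM, but Eaat1 at 737 ± 26.4, Gs2 at 81.9 ± 11.4 and nrv2 at 79.7 ± 10.5 CPM. Of the hemocyte list Hml stood at 0.14 ± 0.14 CPM and NimC1 and eater at 0, but Pxn at 289 ± 22.4 CPM (SD, n = 3 each).

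Every receptor gene was far more abundant in pupal than in larval neurons, and DopEcR led at both stages. DopEcR encodes a receptor that responds to dopamine and to the steroid ecdysone. In larval control neurons its 3 libraries held 48.4, 71.7 and 75.4 CPM, and in pupal control neurons 1864, 2830 and 2432 CPM. The groups did not overlap. Per kb of exon, the scale used here to set genes beside each other, DopEcR stood at 15.2 ± 3.41 CPM per kb in larval and 554 ± 113 CPM per kb in pupal control neurons (SD, n = 3 each). It made up 43.5 ± 3.87% of the summed per-kb level of the 10 genes in larval and 59.4 ± 4.28% in pupal control libraries.

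The other dopamine receptor genes spanned a wide range. Dop2R, whose product is the Gi-coupled receptor also found as an autoreceptor on dopamine neurons, had 29.4, 37.3 and 35.3 CPM in the larval and 855, 770 and 822 CPM in the pupal control libraries. Dop1R1, a Gs-coupled receptor required for olfactory learning, had 15.8, 19.9 and 17.96 CPM in larval and 308, 305 and 303 CPM in pupal controls. Dop1R2, also known as DAMB and linked to forgetting, had 4.72, 4.14 and 4.71 CPM in larval and 117, 101 and 110 CPM in pupal controls. In each of these 3 genes the lowest pupal library lay far above the highest larval one.

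Among serotonin receptors, the Gi-coupled pair was the most abundant per length. 5-HT1A held 27.7, 31.9 and 28.5 CPM in larval and 258, 331 and 307 CPM in pupal controls, and 5-HT1B held 9.03, 11.8 and 10.9 CPM and 119, 155 and 141 CPM. The Gs-coupled 5-HT7 had 4.14, 4.92 and 5.65 CPM in larval and 96.3, 111 and 107 CPM in pupal controls. The Gq-coupled type was represented by 5-HT2A, at 2.99, 2.42 and 3.04 CPM in larval and 134, 136 and 140 CPM in pupal controls, and by 5-HT2B, at 4.66, 7.58 and 6.30 CPM and 96.7, 103 and 109 CPM. 5-HT2A was thus the lowest of the 10 genes in larval controls, with only 31 to 52 counts per library. Oamb, the receptor that resembles vertebrate alpha1-adrenergic receptors and acts through calcium, had 5.18, 6.49 and 5.94 CPM in larval and 227, 294 and 266 CPM in pupal controls.

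**Figure D1:**
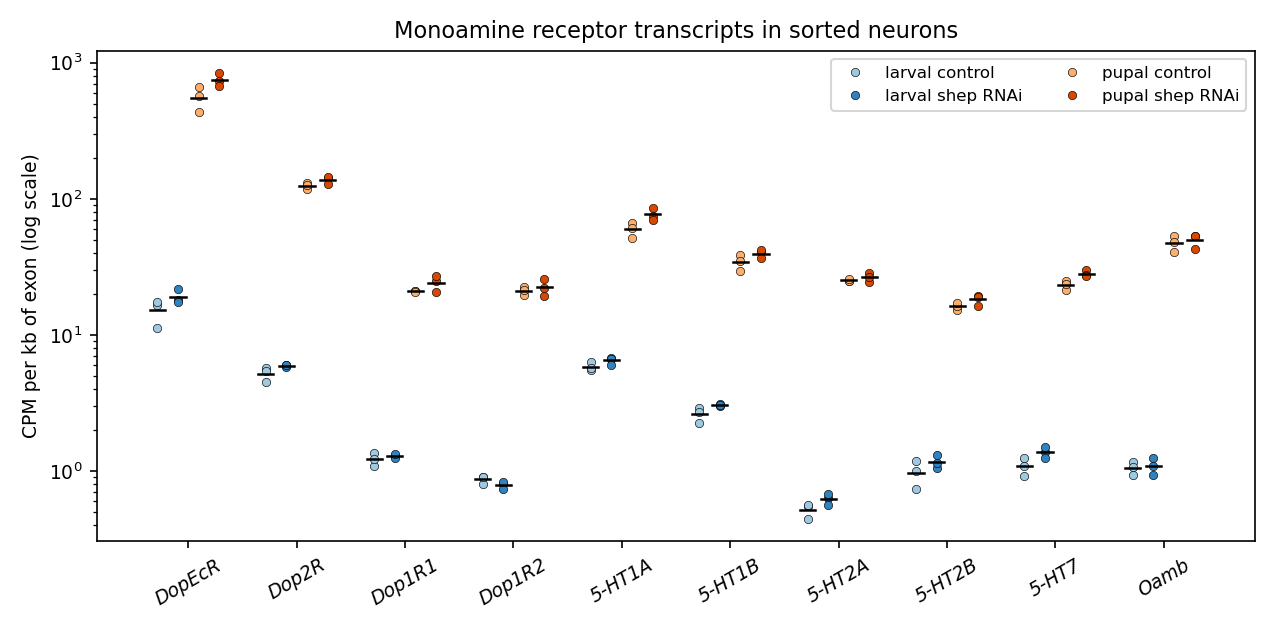
Level of each receptor gene in the 12 neuron libraries, in CPM per kb of exon on a log axis; points are libraries, bars the mean of 3, and colours the 4 groups. All 10 genes lie higher in both pupal groups than in both larval groups, and DopEcR is the highest at each stage.

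The order of levels per kb differed between the stages. Larval controls had the order DopEcR, 5-HT1A (5.85), Dop2R (5.21), 5-HT1B (2.63), Dop1R1 (1.23), 5-HT7 (1.09), Oamb (1.06), 5-HT2B (0.98), Dop1R2 (0.88) and 5-HT2A (0.52), as mean CPM per kb. The ranges of 5-HT1A and Dop2R overlapped, as did those of each neighbouring pair from Dop1R1 down to Dop1R2. In pupal controls the order was DopEcR, Dop2R (125), 5-HT1A (59.5), Oamb (47.4), 5-HT1B (34.4), 5-HT2A (25.2), 5-HT7 (23.4), Dop1R2 (21.1), Dop1R1 (20.9) and 5-HT2B (16.3). There the neighbours from 5-HT2A down to Dop1R1, and 5-HT1A and Oamb, were not separated beyond the range of their libraries. With length taken from the longest transcript in place of all exons, Oamb moved up to rank 5 in larval and rank 3 in pupal controls.

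All 10 receptor genes passed the test between pupal and larval control neurons, each higher in pupae, where 39.0% of 8784 tested genes were called higher and 44.3% lower. In each of the 10 the groups also did not overlap, which held in that direction for 39.2% of tested genes. The log2 fold changes ran from 3.35 for 5-HT1A (SE 0.10, edgeR adjusted p = 1.07e-19) to 5.58 for 5-HT2A (SE 0.11, edgeR adjusted p = 3.39e-23). Oamb rose by 5.49 (SE 0.13) and DopEcR by 5.19 (SE 0.19). Between these lay Dop2R (4.59), Dop1R2 (4.58), 5-HT7 (4.43), Dop1R1 (4.10), 5-HT2B (4.08) and 5-HT1B (3.72), and the median over the 10 was 4.5, against -0.16 over all tested genes. The smallest rise, that of 5-HT1A, lay at the 92.3 percentile of all log2 fold changes and the largest, of 5-HT2A, at the 98.3 percentile.

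These sizes depend on the scaling of the libraries. TMM factors were 1.23 to 1.35 in larval and 0.75 to 0.82 in pupal neuron libraries. With library totals alone the median of all tested genes moved by -0.75, the receptors ranged from 2.59 (5-HT1A) to 4.83 (5-HT2A), and all 10 were still called higher. Of all called genes 46.9% were higher in pupae with TMM and 29.6% with library totals alone. Sorted populations are bulk samples, so more receptor-expressing neurons and more receptor RNA per neuron cannot be told apart. The neuroblast markers fell with the same comparison in 6 of 6 cases, their sum going from 21624 to 31402 CPM in larval to 3800 to 5129 CPM in pupal controls, mostly through pros, and the part of such cells in the receptor difference was not tested. Pupal libraries also held more of the glial list in sum (852 to 939 against 157 to 200 CPM), which came from Eaat1 and Gs2, whereas repo was at 8.38 ± 2.58 CPM in larval controls and lower in pupal ones; 3 of 7 tested glial markers rose and 3 fell. The sum of the hemocyte list went from 35.4 to 41.9 CPM in larval to 280 to 320 CPM in pupal controls, with Pxn higher by 3.19 on the log2 scale, 1 of 3 tested markers higher and 1 lower. The sum of the muscle list went from 61.0 to 69.3 CPM to 472 to 518 CPM, with Mef2 higher by 3.93, 1 of 5 tested markers higher and 3 lower, and Mhc at 0.14 CPM in pupal controls. The part of these cells in the receptor difference was not tested either.

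**Figure D2:**
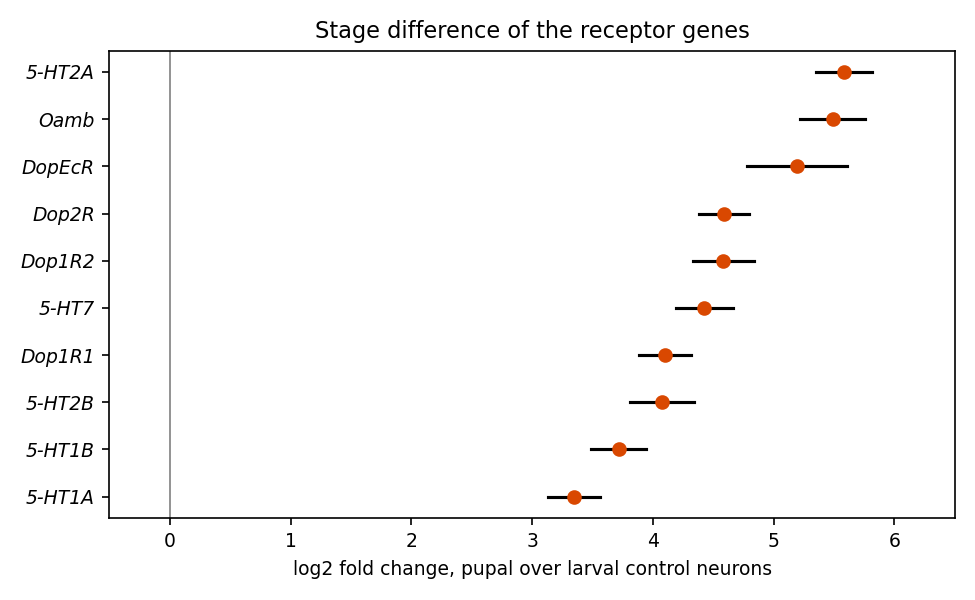
Log2 fold change of each receptor gene between pupal and larval control neurons, with 95% confidence intervals from the edgeR fit. The points run from 3.35 for 5-HT1A to 5.58 for 5-HT2A, and no interval reaches 0.

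The rises were unequal within receptor types. Because a ratio of 2 genes within a library does not depend on library scaling, 5 such ratios, chosen after the levels had been seen, are given per kb of exon. The ratio of 5-HT2A to 5-HT2B was 0.75, 0.37 and 0.57 in larval controls and 1.62, 1.54 and 1.505 in pupal controls, so that 5-HT2B was the more abundant of the pair in each larval and 5-HT2A in each pupal library. The ratio of Dop1R1 to Dop1R2 was 1.19, 1.71 and 1.35 in larval and 0.94, 1.07 and 0.98 in pupal controls. These groups did not overlap either, and the pair was close to equal per kb in pupae.

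Among these 5 ratios, that of Oamb to 5-HT1A changed most in proportion. It was 0.17, 0.18 and 0.19 in larval and 0.80, 0.80 and 0.79 in pupal controls. The ratio of 5-HT1A to 5-HT1B fell from 2.24 ± 0.19 to 1.73 ± 0.02 and that of Dop2R to Dop1R1 rose from 4.24 ± 0.13 to 5.96 ± 0.28 (SD, n = 3 each). For each of the 5 ratios the exact 2-sided permutation p was 0.1, the smallest that 3 against 3 libraries allow, and 0.208 after Benjamini-Hochberg adjustment over the 27 comparisons of ratios and shares computed, so none could pass a threshold of 0.05. With DopEcR set aside, serotonin receptors made up 56.9 ± 0.39% of the summed per-kb level in larval and 42.5 ± 2.48% in pupal controls, while Oamb went from 5.45 ± 0.10% to 12.7 ± 1.23%.

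**Figure D3:**
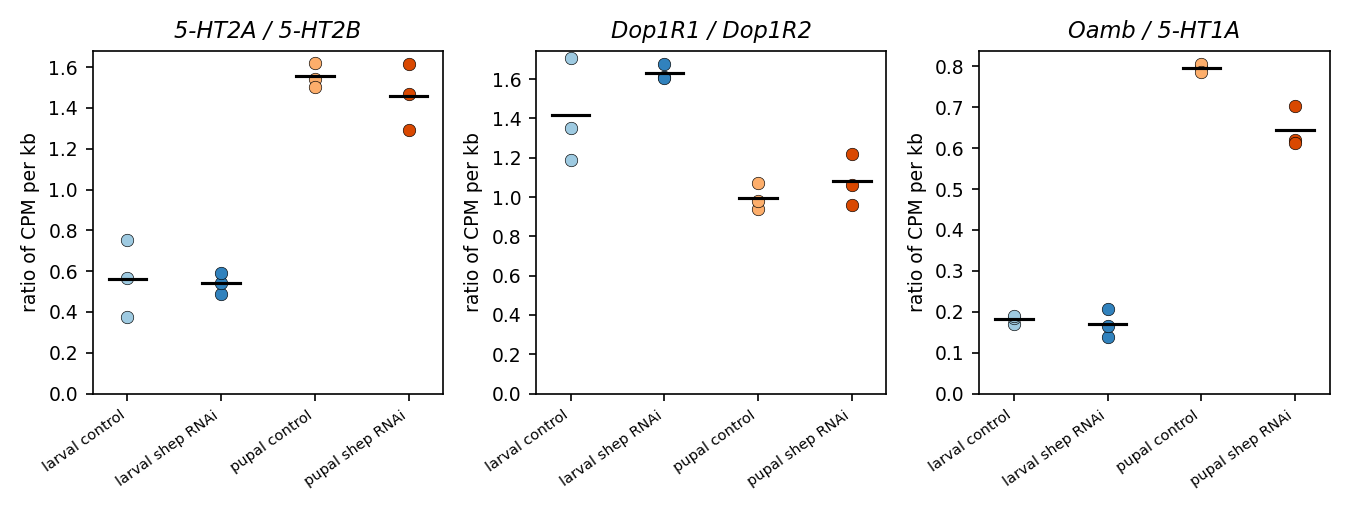
Ratios of CPM per kb of exon between pairs of receptor genes in each neuron library; points are libraries and bars the mean of 3. The ratio of 5-HT2A to 5-HT2B is under 1 in every larval and over 1 in every pupal library, and that of Oamb to 5-HT1A is several times higher in pupae.

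Most other genes of monoamine signalling were also higher in pupal controls, with 2 called lower. Over all tested genes 39.0% were called higher and 44.3% lower in this comparison, with a median of -0.16. All 7 other octopamine and tyramine receptor genes rose from larval to pupal controls, with a list median of 4.54. Octbeta2R rose by 6.78 (SE 0.13), Octbeta1R by 5.19 (SE 0.12), Octalpha2R by 4.61 (SE 0.09) and Octbeta3R by 3.69 (SE 0.10) on the log2 scale. Of 13 genes for synthesis, transport and inactivation of monoamines, 11 were tested and 11 rose (median 2.97). They included Ddc (6.24), the aromatic amino acid decarboxylase of dopamine and serotonin synthesis, ple (5.89), the tyrosine hydroxylase, Vmat (4.25), which loads monoamines into vesicles, and Tbh (2.65), which makes octopamine from tyramine. All 11 genes of the Gs and cyclic AMP list rose, with a smaller median of 1.90, led by the adenylyl cyclase genes Ac3 (3.33), Ac76E (5.57) and Ac13E (4.04) and by the protein kinase A subunit gene Pka-R2 (3.26) at the smallest p values. Of 16 genes for Gq, Gi and Go signalling and receptor regulators, 13 rose and 2 fell (median 2.18). Pkc53E (6.92), Itpr (5.003), norpA (3.30) and Plc21C (2.78) were at the smallest p values, and the falls were of Galphai (-5.56), which encodes the Gi alpha subunit, and of loco (-5.44), a regulator of G protein signalling.

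The genes with the most similar course over the 12 neuron libraries were found by the root mean square difference of centred log2 CPM among 6141 candidates of at least 5 CPM. For DopEcR the nearest was Rdl, a GABA receptor subunit gene (0.08). For 5-HT1B it was rsh (0.07) followed by GluClalpha, a glutamate-gated chloride channel gene (0.08), for Dop2R Octalpha2R (0.10), for Dop1R1 GABA-B-R1 (0.10), and for 5-HT1A rdx (0.10) followed by nAChRalpha6 (0.13). Oamb lay nearest to Ace, the acetylcholinesterase gene (0.13), 5-HT2A to nAChRbeta1 (0.15), 5-HT2B to dpr1 (0.13), 5-HT7 to CG32683 (0.10) and Dop1R2 to CG31145 (0.15). The libraries share their stage, which dominates these distances, and between 153 and 462 genes lay within 0.5 of each member. Among the receptors themselves the neighbouring genes 5-HT1A and 5-HT1B were the most alike pair (0.16) and 5-HT1A and Oamb the least alike (1.02).

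To ask how the receptors responded to reduced shep, RNAi and control libraries were compared at each stage, with the control libraries that also gave the stage comparison. In pupal neurons 5-HT1A rose and the other 9 receptor genes did not pass the test. 5-HT1A had 258, 331 and 307 CPM in the control and 430, 378 and 348 CPM in the RNAi libraries. The groups did not overlap, with a gap between 331 and 348 CPM. On the log2 scale 5-HT1A was higher by 0.37, with an SE of 0.09 (edgeR adjusted p = 0.0142). Thus 1 of 10 receptor genes was called higher where 3.48% of all tested genes were, and 5 had an unadjusted p under 0.05 and were higher, as 11.0% of tested genes were. The call rested on 1 library of each group: without pupal control replicate 1, the lowest, the value was 0.25 (edgeR adjusted p = 0.139), and without pupal RNAi replicate 1, the highest, it was 0.28 (edgeR adjusted p = 0.108).

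5-HT7 and DopEcR also had no overlap between the pupal groups, where 11.8% of tested genes were higher without overlap. 5-HT7 held 96.3, 111 and 107 CPM in control and 135, 123 and 122 CPM in RNAi libraries, or 0.27 higher on the log2 scale (SE 0.09, edgeR adjusted p = 0.0584). DopEcR, at 1864, 2830 and 2432 CPM in control and 3597, 3138 and 2899 CPM in RNAi libraries, had a larger value with a wider spread (0.44, SE 0.16, 95% interval 0.09 to 0.78, edgeR adjusted p = 0.120). Neither passed, and the lowest RNAi library of DopEcR lay just above the highest control. Without pupal control replicate 1 these values were 0.19 for 5-HT7 and 0.27 for DopEcR, whereas without pupal control replicate 2 both were called, at 0.32 and 0.58 (edgeR adjusted p = 0.0432 and 0.0385). Both were also called without larval control replicate 1, which enters the shared estimate of spread (edgeR adjusted p = 0.0310 and 0.0335).

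The pupal values of the remaining 7 genes were small and their groups overlapped. Dop1R1 (0.20) and 5-HT1B (0.21) had an unadjusted p under 0.05, but adjusted p of 0.163 and 0.183 in edgeR. Dop1R1 was the member with the tightest controls, at 303 to 308 CPM, and its RNAi libraries held 299, 361 and 395 CPM, so replicate 1 lay below and the others above all controls. Without that replicate Dop1R1 was called, at 0.31 (edgeR adjusted p = 0.0407). 5-HT2B (0.18), Dop2R (0.14), Dop1R2 (0.09), 5-HT2A (0.08) and Oamb (0.07) completed the set, and the 95% interval of 5-HT2A, -0.09 to 0.24, was the narrowest of these.

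In larval neurons 0 of 10 receptor genes passed the test by edgeR, DESeq2 or limma-voom, where edgeR called 0.364% of tested genes, and 1 was higher at an unadjusted p under 0.05, as 4.35% of tested genes were. That gene was 5-HT7, at 4.14, 4.92 and 5.65 CPM in control and 6.24, 5.63 and 6.80 CPM in RNAi libraries (0.36 higher on the log2 scale, edgeR adjusted p = 0.436), whose groups overlapped by a narrow margin. Dop2R, 5-HT1B and 5-HT2A lay higher without overlap, as 6.94% of tested genes did. Dop2R had 29.4, 37.3 and 35.3 CPM in control and 39.2, 37.9 and 39.1 CPM in RNAi libraries (0.19, edgeR adjusted p = 0.599). 5-HT1B (0.23) and 5-HT2A (0.26) had adjusted p of 0.663 and 0.742 in edgeR. The gaps between the groups were narrow, from 37.3 to 37.9 CPM for Dop2R, 11.8 to 12.05 for 5-HT1B and 3.04 to 3.07 for 5-HT2A. The other values were 0.33 for DopEcR, 0.29 for 5-HT2B, 0.16 for 5-HT1A, 0.08 for Dop1R1, 0.05 for Oamb and -0.15 for Dop1R2, the only one below 0.

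Over the set, values were above 0 in 10 of 10 genes in pupal and 9 of 10 in larval neurons. Their medians were 0.19 and 0.21. Of all tested genes 50.8% and 48.6% were above 0, with medians of 0.01 and -0.0045. At each stage control replicate 1 had the lowest summed receptor level of the controls. Without it, larval Dop1R1 and Oamb fell below 0 (-0.011 and -0.047), as did pupal Oamb (-0.051). The receptors are long genes, and of the 1962 tested genes with at least 4026 bp of exon 66.4% in pupal and 61.1% in larval neurons were above 0, with medians of 0.08 and 0.03. Of these long genes 7.95% were called higher in pupal neurons. The part of gene length in the receptors' values was tested only by removing the length trend of each library. 5-HT1A then went from 0.37 to 0.31 in pupal neurons (edgeR adjusted p = 0.0411), and Oamb changed sign to -0.0031. There 5-HT7 went from 0.27 to 0.22 and DopEcR from 0.44 to 0.38 (edgeR adjusted p = 0.152 and 0.240). The summed level of the 10 genes was 4075, 5136 and 4734 CPM in pupal control and 6221, 5792 and 5346 CPM in pupal RNAi libraries. In larval ones it was 152, 198 and 194 against 209, 202 and 223 CPM. DopEcR, which was not called, was the largest part of these sums. Its mean was 2375 CPM in pupal control and 3212 CPM in pupal RNAi libraries, and 65.2 against 81.8 CPM in larval ones. In the pupal comparison the neuroblast list was also higher in sum (6062 to 7525 against 3800 to 5129 CPM), through pros. That gene rose by 0.59 (edgeR adjusted p = 0.0157), while ase and dpn stayed under 1 CPM. Of the 6 neuroblast markers 1 was called higher and 0 lower, 2 had values above 0, and the list median was -0.295. The sum of 8 glial markers was lower (636 to 827 against 852 to 939 CPM), with repo under 1 CPM in both groups. The sum of 7 hemocyte markers was lower as well (233 to 254 against 280 to 320 CPM). Eaat1 went from a mean of 737 to 595 CPM and Pxn from 289 to 242 CPM. Of 7 tested glial markers 0 were called and 1 had a value above 0, and of 3 tested hemocyte markers 0 and 1. Of the 6 neuronal markers 1 was called lower, Snap25 (-0.54, edgeR adjusted p = 1.16e-04), and 0 were called higher, with a list median of -0.042. Their sum was 16788 to 18126 CPM in RNAi and 16479 to 19793 CPM in control libraries. Of 5 tested muscle markers 1 was called, sls, higher by 2.10 (edgeR adjusted p = 0.0401). It had 5 to 13 counts in control and 10 to 73 in RNAi libraries. The part of these marker differences in the receptors' values was not tested.

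**Figure D4:**
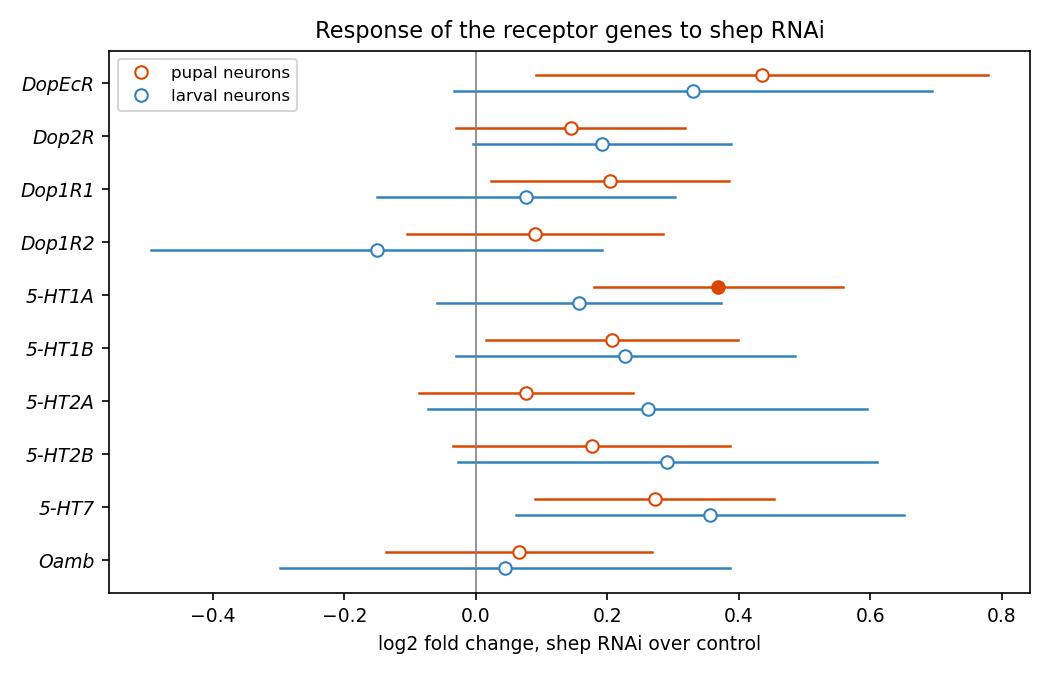
Log2 fold change of each receptor gene on shep RNAi in pupal (orange) and larval (blue) neurons, with 95% confidence intervals from the edgeR fit; a filled point passed an adjusted p of 0.05. Only 5-HT1A in pupal neurons is filled, and Dop1R2 in larval neurons is the one point below 0.

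The responses of the receptors were not shown to differ between stages. The pupal minus larval difference was called for 0 of 10 by edgeR, DESeq2 and limma-voom, where edgeR called 0.364% of tested genes, and 0 had an unadjusted p under 0.05, where 10.4% of tested genes did. It ran from -0.19 for 5-HT2A (SE 0.18, edgeR adjusted p = 0.783) to 0.24 for Dop1R2 (SE 0.19, edgeR adjusted p = 0.712). For 5-HT1A it was 0.21 (SE 0.14, edgeR adjusted p = 0.631), so the pupal call was not shown to be particular to pupal neurons. The 10 values had a median of 0.00022, with 5 above 0 and 5 below.

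Among other genes of the pathway, calls on RNAi are set beside those over all tested genes, of which 7.65% were called in pupal neurons, 3.48% higher and 4.17% lower. In pupal neurons 0 of 7 other octopamine and tyramine receptor genes passed by edgeR, none at an unadjusted p under 0.05 either, with a median of -0.0013. The smallest p values were those of Oct-TyrR (0.17), TyrR (-0.15), Octbeta2R (0.10) and TyrRII (0.30). Of 11 tested synthesis, transport and inactivation genes 1 rose, SerT, the serotonin transporter gene (0.91 on the log2 scale, edgeR adjusted p = 0.0281). SerT was scarce, with 17 to 23 counts in the pupal control and 31 to 44 in the pupal RNAi libraries. In the Gs and cyclic AMP list Ac13E, an adenylyl cyclase gene, rose by 0.75 (SE 0.09, edgeR adjusted p = 8.81e-06) and Galphas, the Gs alpha subunit gene, fell by 0.27 (SE 0.07, edgeR adjusted p = 0.0195), among 11 tested. Of the 16 genes for Gq, Gi and Go signalling 1 rose, the phospholipase C gene Plc21C (0.26, SE 0.08, edgeR adjusted p = 0.0402). In larval neurons 0 genes of these lists passed by edgeR. At an unadjusted p under 0.05, 0 were higher and 3 were lower, namely Vmat (-0.35), Gbeta5 (-0.25) and Ac3 (-0.16), where 4.35% of all tested genes were higher and 4.34% lower.

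BG3 cells held next to no receptor transcripts. The 10 genes together had 24 reads of 9495406 in the 3 libraries with GFP dsRNA and 32 of 12972212 in the 3 with shep dsRNA. Dop1R2, Dop2R, 5-HT1A and 5-HT1B had 0 reads in all 6 libraries, which allows a level of up to 0.316 CPM with GFP and 0.231 CPM with shep dsRNA (3 counts over the group). Set against larval control neurons on library totals, Dop2R was at least 139.5-fold lower, 5-HT1A at least 121-fold, 5-HT1B at least 43.4-fold and Dop1R2 at least 18.9-fold lower in BG3 cells with GFP dsRNA. These bounds cross cell sources whose libraries may differ in other ways, and counting error is all that they cover.

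The remaining 6 genes had 1 to 10 reads a group. 5-HT7 had 6 reads with GFP and 10 with shep dsRNA, or on pooled library totals 0.63 CPM (exact Poisson 95% interval 0.23 to 1.38) and 0.77 CPM (0.37 to 1.42). 5-HT2B had 5 and 10 reads, and DopEcR, the most abundant receptor in neurons, 4 and 5. 5-HT2A and Dop1R1 had 3 reads in each group, and Oamb 3 and 1. None of the 10 passed the filter on low counts, so 0 were tested for the effect of shep dsRNA, where 5.41% of 6816 genes were called. None of the other octopamine and tyramine receptor genes and none of the synthesis and transport genes passed the filter either. Genes that carry receptor signals were present, with 10 of 11 of the Gs and cyclic AMP list and 13 of 16 of the Gq, Gi and Go list tested. Of them 1 passed, dnc, the cyclic AMP phosphodiesterase gene, which rose by 0.22 with shep dsRNA (SE 0.06, edgeR adjusted p = 0.0413).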

How the data were processed

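RNA-seq was done on 12 libraries of sorted neurons and 6 of BG3 cells. The authors deposited 1 table of raw counts per gene; per the submitters' processing notes, cutadapt 1.10, HISAT2 2.0.4 and featureCounts 1.5.0-p3 were used with dm6. Which annotation release was counted, whether strand was used and how reads mapping to several places were treated is not given in the sources used here. From these counts, edgeR 4.0.16 (R 4.3.3) was run with TMM factors, its default filter on low counts and robust quasi-likelihood tests, in 1 fit of the 12 neuron libraries (4 group means) and another of the 6 BG3 libraries, with Benjamini-Hochberg adjustment over all genes tested and a threshold of 0.05. CPM values use TMM factors, except in BG3 cells, where receptor levels, floors and bounds use pooled library totals. Poisson intervals and floors cover counting error only, and the 95% intervals of fold changes come from the edgeR fit and cover variation among libraries. Exonic length and positions came from the Ensembl annotation of dm6, which matched 17210 of 17402 genes. The fits were also run on simulated data, in which far fewer genes were altered than were called between stages. The outcome is not given, and no result here rests on it.

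The receptors, gene lists and marker lists were chosen with earlier results of these data known. Named were all 10 receptors, shep, up to 4 genes of smallest p per list and comparison, and the 2 genes nearest in pattern to each receptor, of which some are printed; marker genes and genes that alone passed a test were named beside their counts. Alternatives were RLE factors, DESeq2 1.42.0, limma-voom (limma 3.58.1), other filters, a replicate block, removal of a gene length trend, only the 2 groups compared, each library left out, and, chosen after seeing the data, library totals alone. Replicates of a group differed by more than counting noise, so none were merged.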

Additional observations from a re-analysis of the deposited data

How the results depend on the processing

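All 10 receptors were called higher in pupal than in larval controls under every alternative run. The pupal call of 5-HT1A held under the 9 alternatives that keep all libraries of the comparison (0.31 to 0.37, edgeR, DESeq2 or limma-voom adjusted p from 0.00797 to 0.0411). Receptors called in pupal neurons numbered 2 with limma-voom (5-HT1A and 5-HT7) and 2 with no filter (5-HT1A and DopEcR), against 1 in the report. Genes called in larval neurons numbered 50 with DESeq2 and 76 with no filter against 32, those for the difference between stages 93 and 102 against 32, and those in BG3 cells 173 with DESeq2 against 369. Oamb changed sign near 0: its stage difference was -0.00022 with RLE factors, -0.00023 with DESeq2, -0.0091 with no filter and -0.017 with the length trend removed, where its pupal value was -0.0031. The cause of these changes was not tested.

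With 1 library left out, genes called ranged from 7177 to 7442 for stage, 319 to 895 for pupal RNAi, 10 to 52 for larval RNAi, 13 to 89 for the difference and 133 to 466 in BG3 cells, and receptors called in pupal RNAi from 0 to 3. Signs changed for the difference of 5-HT1B (-0.14 to 0.092), 5-HT2B (-0.28 to 0.072), 5-HT7 (-0.20 to 0.040), Dop2R (-0.12 to 0.051), DopEcR (-0.066 to 0.28) and Oamb (-0.099 to 0.12), for larval Dop1R1 (-0.011 to 0.16) and Oamb (-0.059 to 0.15), and for pupal Dop1R2 (-0.025 to 0.19) and Oamb (-0.051 to 0.16).

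Replicate numbers did not pair the RNAi and control libraries of neurons. Deviations of same-numbered libraries correlated at -0.081 to 0.0024 in pupal and -0.051 to -0.022 in larval neurons. Between larval and pupal controls same-numbered libraries correlated at 0.16, 0.12 and -0.0034, and libraries of unlike number at -0.17 to 0.061. Whether control libraries of the same number shared handling across the stages was not tested. In BG3 cells same-numbered libraries correlated at 0.041, 0.097 and 0.11, and libraries of unlike number at -0.12 to 0.022. A replicate block raised the genes called in BG3 cells from 369 to 616. The BG3 libraries may thus be paired by number, which the main fit left out. In BG3 cells receptors were tested only with no filter, where 6 of 10 were fitted and 0 called; their values are not given at 1 to 10 reads a group. Larval counts of 31 to 52 for 5-HT2A limit its precision.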
